A study of Mus musculus with 6 samples.

Results

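CHOP, TRIB3 and CHAC1 stand at the far end of the integrated stress response, and 10 genes of that branch were followed here in mouse cells treated with metformin. The genes were Ddit3 (which encodes CHOP), Trib3, Chac1, Atf3, Cebpb, Nupr1, Vldlr, Gdf15, Fgf21 and Stc2, 10 of the 55401 genes in the table, and all 10 were found by Ensembl identifier. Trib3, Chac1 and Ddit3 were chosen by their higher FPKM in the metformin libraries of these same data, and the other 7 were added as known co-targets of ATF4 and CHOP. The difference between the groups is therefore a description for Trib3, Chac1 and Ddit3, with no test, and it supports nothing further.

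RNA-seq was made from cultured cells labelled as female germline stem cells (FGSCs), a C57BL/6 line past passage 20 that grows on inactivated STO fibroblast feeders in medium with LIF, EGF, bFGF and GDNF. The control group had 3 libraries from untreated cells. The metformin group had 3 libraries from cells given 1 μM metformin, a biguanide drug against diabetes, for 24 h. The study states in general that experiments were repeated, but not whether these repeats were separate cultures, so the p-values measure the spread between these libraries, which may be technical.

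Depth was close between the libraries, at 13400000 to 14000000 mapped fragments as estimated from the table, with 317332 to 319720 FPKM in total per control library and 318769 to 320754 per metformin library. The labelled cell type was checked against marker genes. Among 6 genes that mark germ cells, the value of Pou5f1, Dppa3 and Dazl was 0 in all 6 libraries, Ddx4 reached at most 0.05 FPKM and Prdm1 at most 0.04. The sixth, Ifitm3, which other cell types also express, had 0.32 to 1.32 FPKM and makes up nearly all of their summed level. Summed over the 6 markers, the level was 0.48 to 1.38 FPKM in the control group and 0.33 to 0.93 with metformin. The 10 markers of fibroblasts, the type of the feeder cells, summed to 0.41 to 0.69 FPKM in the control group and 0.49 to 0.61 with metformin, and Lum was at 0 throughout. By contrast, all 8 blood cell markers had a mean above 1 FPKM and together reached 515 to 526 FPKM in the control group and 543 to 549 with metformin. Of the 7 mast cell markers, Cpa3 had a mean of 352 FPKM, whereas Fcer1a, Tpsb2 and Mcpt4 were listed at 0. The germ cell genes other than Ifitm3 were thus at or near 0, while blood cell markers were abundant. The paper, in contrast, reports RT-PCR detection of these 6 germ cell genes in its cultured line. It also reports staining for MVH, the protein of Ddx4. The summed blood cell markers were higher and the summed mast cell markers lower in every metformin library than in every control library, and their part in the results below was not tested. The blood sum rests mainly on Gata2 and Kit. Among its 8 genes, 2 (Lyl1 and Gata2) were above in every metformin library and 1 (Ptprc) was below. Over all 10661 genes averaging 1 FPKM or more, 8.89% were above and 8.1% below in this way, so nothing is read from these counts. The mast cell sum is almost all Cpa3. In bulk RNA, fewer cells that express a gene and less RNA per cell cannot be told apart.

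The integrated stress response begins when a kinase such as PERK, GCN2, HRI or PKR phosphorylates the initiation factor eIF2α. General translation falls, while the transcription factor ATF4 is translated more and switches on genes for amino acid supply. With lasting stress ATF4 also induces CHOP, and ATF4 and CHOP together drive a late set of genes that includes Trib3 and Chac1. ATF4 binds DNA as a dimer with a C/EBP protein at a composite element that holds a part for each partner.

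The promoters were examined because the 3 leading genes were higher together. RefSeq windows on GRCm38.p6, from 250 bases before to 50 bases after the transcription start, were held for all 10 genes, with a second window for Gdf15 and for Vldlr (12 windows). The composite element TGATGCAA, or its reverse complement TTGCATCA, was searched on both strands, and so was its looser form TGATGNAA, which also takes in every exact match. The exact element was in 5 of the 12 windows, each of a different gene, against 0.895% of all 32851 promoter windows. The looser form was in 6 of the 12, again each of a different gene, against 3.97% of all windows. Among 39 other listed genes of the pathway with a window, 7 held the exact element and 9 the looser form. The genes were picked as targets of ATF4 or CHOP, so the shares are given as a description. The matches are shown with 10 bases on each side, 5′ to 3′ on the strand of the gene, with the matched bases in capitals.
Chac1: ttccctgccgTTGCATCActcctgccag
Atf3: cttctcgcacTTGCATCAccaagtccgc
Nupr1: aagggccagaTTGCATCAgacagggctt
Fgf21: gacccccccaTTGCATCAtccgtccagg
Vldlr: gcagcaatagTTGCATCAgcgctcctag
Trib3: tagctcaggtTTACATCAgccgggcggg

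All 6 matches read the element on the strand opposite to the gene. The match of Chac1 (chr2:119351049-119351056) lies from -193 to -186, those of Atf3 (chr1:191183436-191183443) and Nupr1 (chr7:126625573-126625580) both lie from -110 to -103, and that of Fgf21 (chr7:45615622-45615629) lies from -139 to -132. The match of Vldlr (chr19:27216820-27216827) lies from -200 to -193 of the second start. That of Trib3 (chr2:152344039-152344046) is a looser match from 15 to 22 after the start. The windows of Ddit3, Cebpb, Stc2 and Gdf15 hold neither form. No member window held the ATF/CRE palindrome TGACGTCA (1.79% of all windows), the C/EBP palindrome TTGCGCAA (0.183%) or the ER stress element (0.119%). Absence says only that these letters are not in this window. The RefSeq starts of Atf3 (191183333) and Nupr1 (126625470), and the second starts of Vldlr (27217020), which carries its match, and of Gdf15 (70632095), lie inside the gene bounds of the expression table and not at their 5′ end. The starts of Chac1 (119351242), Ddit3 (127290793) and Stc2 (31370061) also lie inside those bounds, close to the 5′ end. That of Trib3 (152344060) lies outside them, since the gene begins at 152344032 on the minus strand in the expression table. By those bounds the match of Trib3 lies before the gene.

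**Figure D1:**
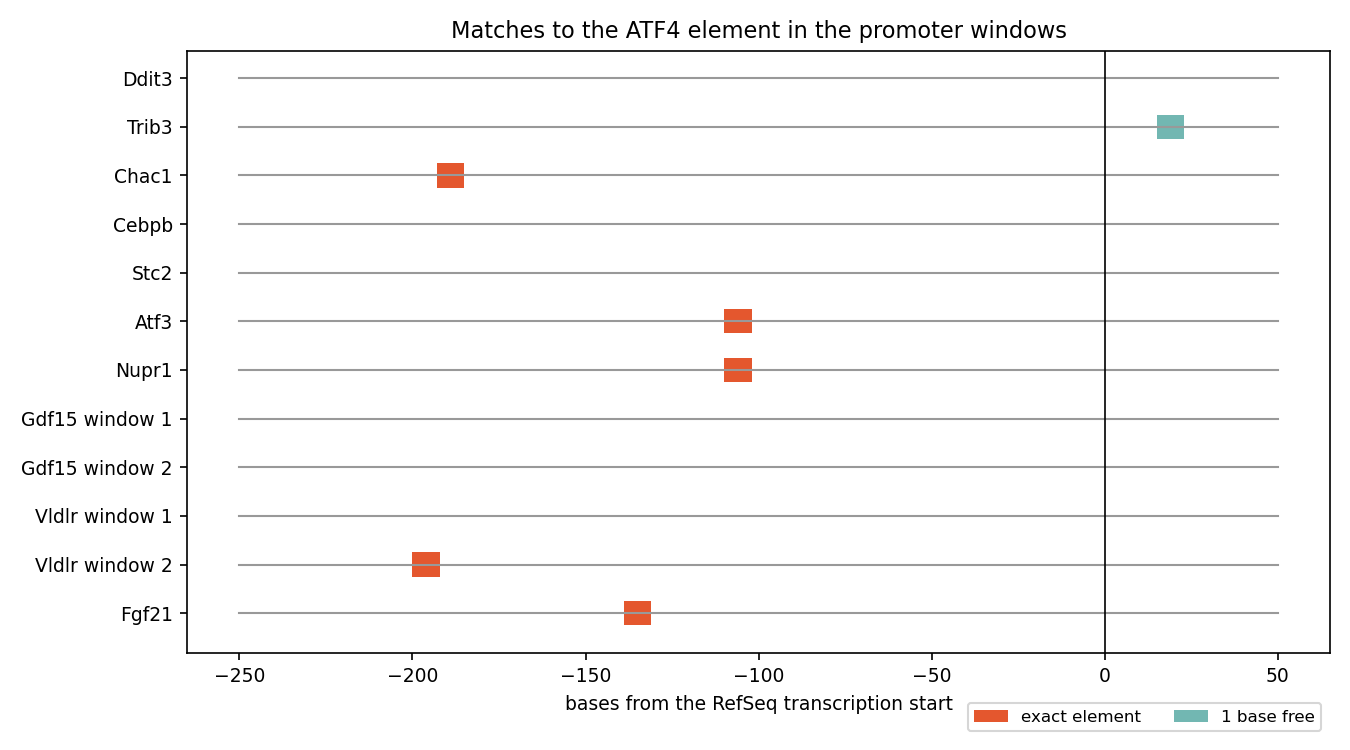
Matches to the ATF4 composite element in the 12 promoter windows of the 10 genes, in bases from the RefSeq transcription start (vertical line). Orange boxes are exact matches and the teal box is the looser match of Trib3. The exact matches of 5 genes all lie before the start, between -200 and -103.

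The 250 bases before the start of the 3 leading genes are shown because they held an exact match in Chac1 alone, which is in capitals. They lie at chr2:119350992-119351241 on the plus strand for Chac1, at chr2:152344061-152344310 on the minus strand for Trib3 and at chr10:127290543-127290792 on the plus strand for Ddit3, with 60.8%, 57.2% and 64.8% GC against a median of 52.4% over all windows.
Chac1: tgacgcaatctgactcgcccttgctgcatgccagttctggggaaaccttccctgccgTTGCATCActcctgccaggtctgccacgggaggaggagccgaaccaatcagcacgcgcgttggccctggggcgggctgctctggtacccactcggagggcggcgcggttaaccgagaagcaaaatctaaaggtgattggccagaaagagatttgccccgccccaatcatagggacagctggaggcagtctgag
Trib3: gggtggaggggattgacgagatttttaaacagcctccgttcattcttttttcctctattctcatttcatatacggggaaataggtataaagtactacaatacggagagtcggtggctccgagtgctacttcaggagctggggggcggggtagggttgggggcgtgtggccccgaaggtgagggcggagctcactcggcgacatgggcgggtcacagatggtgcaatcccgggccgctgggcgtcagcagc
Ddit3: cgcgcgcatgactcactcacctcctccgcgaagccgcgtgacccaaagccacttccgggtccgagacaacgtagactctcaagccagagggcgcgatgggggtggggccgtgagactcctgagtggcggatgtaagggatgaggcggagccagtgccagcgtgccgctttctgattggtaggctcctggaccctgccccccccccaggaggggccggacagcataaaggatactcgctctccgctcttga

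The question put to the expression table was how far these genes differ between control and metformin-treated cells. The unit is FPKM, in which fragments are scaled to transcript length and library depth, so that levels can be compared between genes. In all, 5 of the 10 genes averaged 1 FPKM or more across the libraries and entered the comparison with limma on log2(FPKM + 1), together with 10661 genes in all. They were Ddit3, Trib3, Chac1, Cebpb and Stc2. Atf3, Nupr1, Gdf15, Vldlr and Fgf21 were under that level. Over all tested genes, 3 (0.0281%) had an adjusted p under 0.05 with metformin higher, and 0 had one with metformin lower (513 lower at an unadjusted p under 0.05, 4.81%). The 3 are Trib3, Chac1 and Ddit3 themselves, picked for this, so nothing is read from the count. Ddit3 was not among those called when the repeat number was fitted as a block.

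Trib3 encodes a pseudokinase that binds AKT and ATF4 and is itself a target of CHOP. It spans chr2:152337422-152344032 of GRCm38 (minus strand, ENSMUSG00000032715). Its FPKM was 6.42, 6.92 and 6.33 in control repeats 1 to 3 and 15.89, 16.43 and 15.82 in metformin repeats 1 to 3. The groups are far apart, with the lowest metformin library at 2.29 times the highest control library. The means were 6.56 ± 0.318 and 16.0 ± 0.334 FPKM (SD, n = 3 each), a ratio of 2.45. The difference was 1.17 on the scale of log2(FPKM + 1), with a standard error of 0.04. Adding 1 makes the change of a low gene look smaller, and with a pseudocount of 0.1 the difference of Trib3 was 1.28.

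Chac1 encodes an enzyme that cleaves glutathione in the cytosol. It spans chr2:119351229-119354381 of GRCm38 (plus strand, ENSMUSG00000027313). Its FPKM was 2.28, 2.79 and 2.49 in the control libraries and 6.57, 7.26 and 6.99 with metformin. The groups did not overlap, and the lowest metformin library was 2.35 times the highest control library. With the exon length of GENCODE M1 and the estimated depth, these values stand for about 50.0, 63.0 and 57.1 fragments in the control libraries and 151, 166 and 158 with metformin, the lowest support among the 3 leading genes. The means were 2.52 ± 0.256 and 6.94 ± 0.348 FPKM (SD, n = 3 each), a ratio of 2.75 and a log2 difference of 1.18 (standard error 0.07). With the pseudocount of 0.1 this log2 difference was 1.43, against 1.28 for Trib3, so the distance between Chac1 and Trib3 depends on the pseudocount.

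Ddit3 encodes CHOP, a C/EBP family transcription factor that promotes cell death when stress lasts. It spans chr10:127290774-127296288 of GRCm38 (plus strand, ENSMUSG00000025408). The control libraries had 7.32, 6.90 and 7.77 FPKM and the metformin libraries 12.39, 13.45 and 12.86. The groups were apart, with the lowest metformin library at 1.59 times the highest control library. The means were 7.33 ± 0.435 and 12.9 ± 0.531 FPKM (SD, n = 3 each), a ratio of 1.76 and a log2 difference of 0.74 (standard error 0.05). The 3′ end of Ddit3 shares 68 bp, from 127296221 to 127296288, with Mars on the opposite strand, which had a mean of 59.7 FPKM and a log2 difference of 0.07. Whether the counting used strand is not given in the sources used here, so fragments in this stretch could belong to either gene. RP24-341K21.6 on the opposite strand shares 15 bp at the 5′ end (mean 0.252 FPKM), and ENSMUSG00000116429 shares 2925 bp on the same strand, where strand could not separate them, and is listed at 0 in all 6 libraries.

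The 3 leading genes did not move by the same factor. The ratio of Trib3 to Ddit3 within a library was 0.877, 1.00 and 0.815 in the control libraries and 1.28, 1.22 and 1.23 with metformin, so that Trib3 was level with or below Ddit3 in the control group and above it in every metformin library. The ratio of Chac1 to Ddit3 was 0.311, 0.404 and 0.320 in the control libraries and 0.530, 0.540 and 0.544 with metformin. The ratio of Trib3 to Chac1 changed less, from 2.48 to 2.82 in the control group to 2.26 to 2.42 with metformin. Within the control group the genes did not share an order either, since repeat 2 was the highest of the 3 for Trib3 and Chac1 and the lowest for Ddit3. In the metformin group repeat 2 was the highest for all 3 genes. These orders rest on small differences, such as about 168, 163 and 186 fragments for Ddit3 in control repeats 1 to 3. Whether they exceed counting error was not tested.

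**Figure D2:**
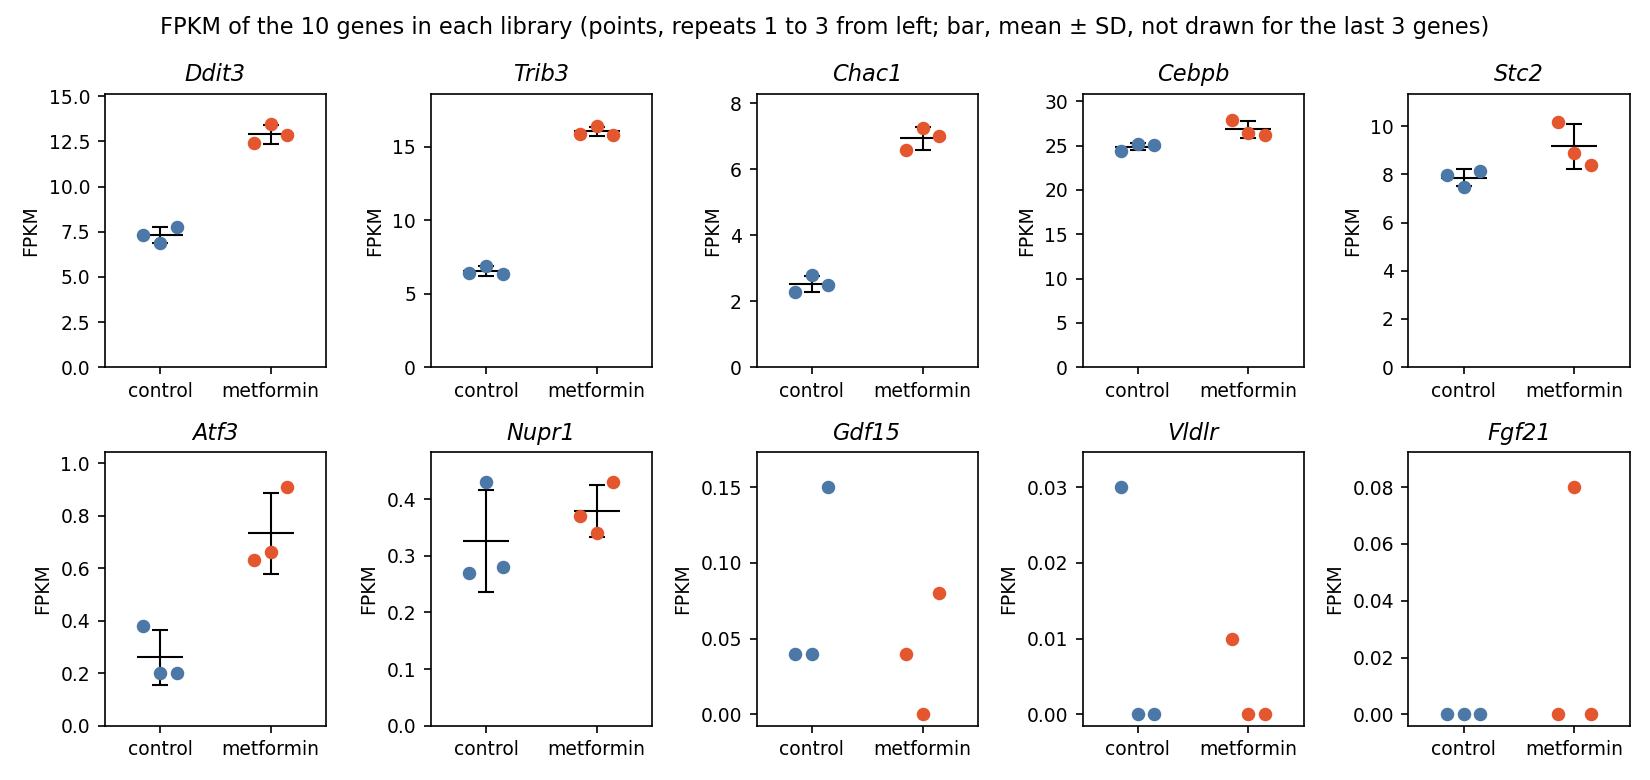
FPKM of the 10 genes (vertical axes, each with its own scale) in the 3 control libraries (blue) and the 3 metformin libraries (orange), with mean ± SD except for Gdf15, Vldlr and Fgf21. Trib3, Chac1 and Ddit3 are well apart between the groups, Atf3 is apart at a level under 1 FPKM, and Nupr1, Gdf15, Vldlr and Fgf21 overlap.

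Cebpb and Stc2 were the co-targets expressed above 1 FPKM, and neither passed the test over all genes. Cebpb encodes C/EBPβ, a transcription factor that dimerizes with ATF4 and CHOP, and was the most abundant of the 10 genes. It spans chr2:167688915-167690418 of GRCm38 (plus strand, ENSMUSG00000056501). Its FPKM was 24.40, 25.15 and 25.06 in the control libraries and 27.90, 26.41 and 26.21 with metformin. The groups did not overlap but were close, the lowest metformin library being 1.04 times the highest control library. The log2 difference was 0.11 (standard error 0.03, 95% interval 0.03 to 0.18, adjusted p = 0.367 from limma), a ratio of means of 1.08. Tmem189 on the opposite strand covers 908 bp of Cebpb in the table and had a mean of 21.9 FPKM and a log2 difference of 0.07, so reads in that stretch can be told apart only if strand was used.

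Stc2 encodes stanniocalcin 2, a secreted glycoprotein. It spans chr11:31357307-31370074 of GRCm38 (minus strand, ENSMUSG00000020303). The control libraries had 7.99, 7.46 and 8.14 FPKM and the metformin libraries 10.19, 8.91 and 8.39. Metformin repeat 1 was the highest, and repeat 3 was only 1.03 times the highest control library. The log2 difference was 0.19 (standard error 0.07, 95% interval 0.03 to 0.36, adjusted p = 0.397 from limma). Without metformin repeat 1 it was 0.12. A complete gap with metformin higher, as in both genes, was found in 948 of the 10661 tested genes (8.89%), and an unadjusted p under 0.05 with metformin higher in 643 (6.03%). Among all tested genes, 1107 had a larger log2 difference than Cebpb and 338 a larger one than Stc2.

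Atf3 encodes a stress-induced repressor of the CREB family that can be switched on by ATF4. It spans chr1:191170296-191218039 of GRCm38 (minus strand, ENSMUSG00000026628). Its FPKM was 0.38, 0.20 and 0.20 in the control libraries and 0.63, 0.66 and 0.91 with metformin. The groups did not overlap, but the level was low, with about 5.48 to 10.1 fragments per control library and 17.5 to 24.9 per metformin library at the exon length of GENCODE M1. The mean was 2.82 times that of the control group, and the log2 difference was 0.46 with a pseudocount of 1 and 1.23 with a pseudocount of 0.1. As a single gene, its two-sided exact permutation test gave p = 0.1, the smallest that 3 libraries against 3 allow. When all 22809 genes above 0 were tested, Atf3 had a standard error of 0.09 and adjusted p = 0.420 (limma).

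Nupr1 encodes a small stress-induced chromatin protein. It spans chr7:126623249-126630861 of GRCm38 (minus strand, ENSMUSG00000030717). The control libraries had 0.27, 0.43 and 0.28 FPKM and the metformin libraries 0.37, 0.34 and 0.43. The ranges overlapped, with the highest library of each group at the same value. All 6 values were above 0.0874 to 0.0913 FPKM, the level of 3 fragments in a library, which was taken as the smallest amount that can be told from 0 and covers counting error only. The log2 difference was 0.06 (two-sided exact permutation test, p = 0.4). It was 0.03 without control repeat 1, control repeat 3 or metformin repeat 3, 0.11 without control repeat 2, and 0.19 with a pseudocount of 0.1.

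The remaining genes were at or near the limit of detection. Gdf15, a secreted factor of the TGF-β family that acts on appetite, had 0.04, 0.04 and 0.15 FPKM in the control libraries and 0.04, 0 and 0.08 with metformin. Control repeat 3 alone was above the level of 3 fragments, 0.116 to 0.121 FPKM. Fgf21, a metabolic hormone made mainly by the liver, was listed at 0 in 5 libraries and at 0.08 FPKM in metformin repeat 2, which is about 1.04 fragments, under the level of 0.23 to 0.241 FPKM. Vldlr, a receptor for lipoproteins and reelin, was listed at 0 in 4 libraries, at 0.03 FPKM in control repeat 1, above its level of 0.0213 to 0.0222 FPKM, and at 0.01 in metformin repeat 1, below it. A difference in Gdf15, Fgf21 or Vldlr was not detectable at this depth, and no fold is given. In the table Gdf15 spans chr8:70629393-70632456 (minus strand), Fgf21 chr7:45613886-45615490 (minus strand) and Vldlr chr19:27216484-27254231 (plus strand).

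The order of the levels differed between the groups. In the control group Cebpb was the highest, at 3.16 times Stc2, followed by Stc2, Ddit3 and Trib3, then Chac1, Nupr1, Atf3, Gdf15, Vldlr and Fgf21. The control ranges of Stc2 and Ddit3 overlapped, and so did those of Ddit3 and Trib3, of Nupr1 and Atf3, and of Vldlr and Fgf21. With metformin, Trib3 was second to Cebpb, ahead of Ddit3 and Stc2 with no overlap between these neighbours, and Atf3 was above Nupr1. The 5 promoters with the exact element belonged to Chac1 and to 4 genes under 1 FPKM, namely Atf3, Nupr1, Fgf21 and Vldlr.

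Relatives and receptors of the 10 genes, listed by family, were compared in the same way. Of 20 listed relatives, 19 were matched and 7 were tested, and 0 of the 7 had an adjusted p under 0.05 (limma), or an unadjusted p under 0.05, with a smallest adjusted p of 0.602. Over all tested genes 6.03% were higher and 4.81% lower at an unadjusted p under 0.05, so a count of 0 among 7 is near the background and is no result about the relatives. Chac2, which also degrades glutathione, had 3.84 ± 0.535 FPKM in the control group and 3.31 ± 0.476 with metformin (SD, n = 3 each). Its log2 difference was -0.17 (standard error 0.11, 95% interval -0.41 to 0.08, adjusted p = 0.602 from limma). The 12 matched relatives that were not tested averaged at most 0.54 FPKM. Among these, the other pseudokinases of the Tribbles family were low, with Trib1 at 0.557 ± 0.0503 and 0.523 ± 0.0808 FPKM (SD, n = 3 each) and Trib2 listed at 0 in all 6 libraries. Cebpg, a C/EBP protein that pairs with ATF4 and CHOP, had 13.7 ± 0.408 and 14.1 ± 0.719 FPKM (SD, n = 3 each), with a log2 difference of 0.04 and adjusted p = 0.796 (limma). Of the partners and relatives of ATF3, Jdp2, Fosl1, Batf and Batf3 had log2 differences of 0.06, -0.01, -0.03 and -0.09. Lrp8, a receptor related to Vldlr, was expressed at 12.6 FPKM in both groups, with a log2 difference of -0.0033.

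**Figure D3:**
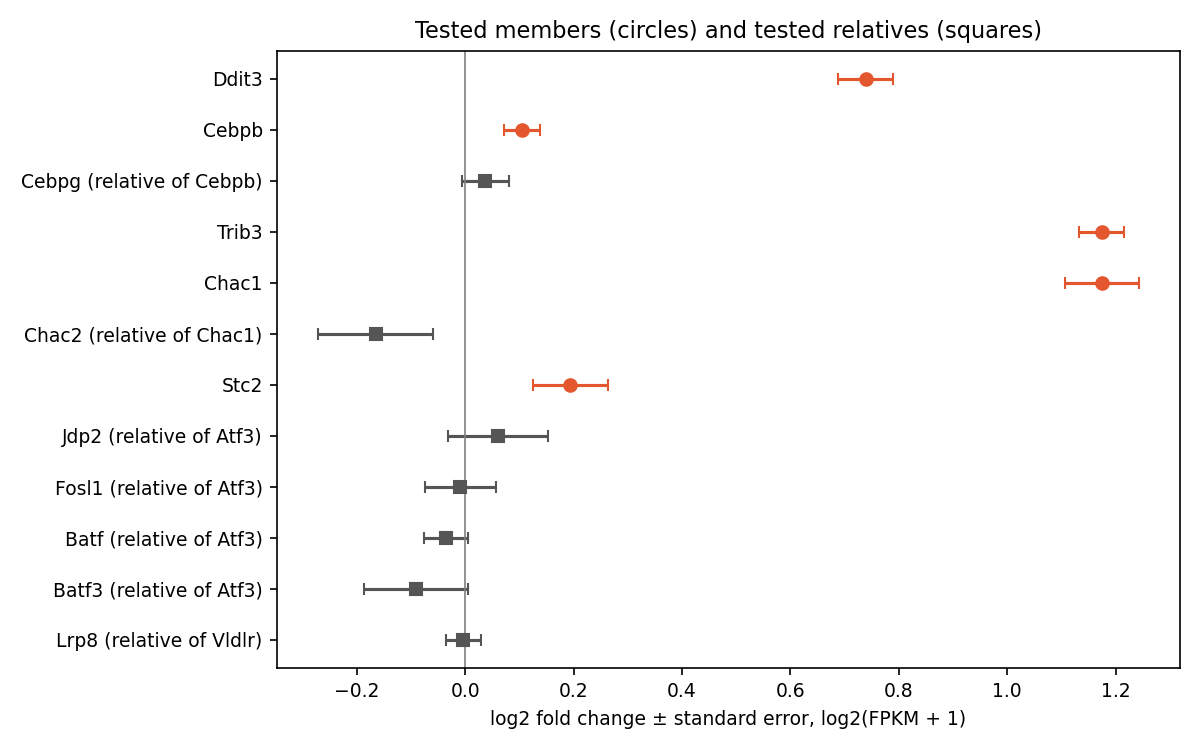
Log2 difference between metformin and control (horizontal axis, scale of log2(FPKM + 1), bars are standard errors) of the 5 tested genes among the 10 (circles) and of their 7 tested relatives (squares). The relatives lie between -0.17 and 0.06, whereas Trib3, Chac1 and Ddit3, picked for their rise, lie at 0.74 and above.

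The other genes of the pathway were taken from lists written from general knowledge with earlier results of these data known, so their counts are no independent evidence of direction. The 6 lists of eIF2α kinases and ATF factors, amino acid enzymes, amino acid transporters, tRNA synthetases, growth brakes and CHOP targets held 55 genes, of which 51 were tested. None of the 51 had an adjusted p under 0.05 (limma), with a smallest value of 0.201. At an unadjusted p under 0.05, 26 were higher with metformin (background 6.03%) and 0 lower (background 4.81%). Complete separation with metformin above was found in 29 genes and with metformin below in 0, against 8.89% and 8.1% of all tested genes. The median log2 difference was 0.07, beside 0.0041 over all tested genes, and 43 of the 51 were positive (42 after scaling every library to a common sum or after quantile normalization).

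Among regulators, Atf4 itself had 200, 207 and 203 FPKM in the control libraries and 238, 233 and 222 with metformin. The groups did not overlap, and the log2 difference was 0.18 (adjusted p = 0.243 from limma). Ppp1r15a, which encodes the CHOP-induced phosphatase subunit GADD34 that reverses eIF2α phosphorylation, had 9.62 ± 0.636 FPKM in the control group and 12.5 ± 0.376 with metformin (SD, n = 3 each), and its log2 difference was 0.35 (adjusted p = 0.223 from limma). Eif2ak2, the kinase PKR, had a log2 difference of -0.10. The 11 genes of this list had a median of 0.04.

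No gene of the 3 amino acid lists passed the test over all genes (limma). In the list of amino acid and one-carbon enzymes the median over 10 tested genes was 0.07, and the members with the largest differences were Gpt2, an alanine transaminase, at 0.24, Psph, of serine synthesis, at 0.15 and Aldh18a1, of proline synthesis, at 0.09. In the transporter list the median over 9 tested genes was 0.13, led by Slc1a4, a carrier of neutral amino acids, at 0.28, Slc7a11, the cystine carrier, at 0.20 and Slc3a2, the heavy chain shared by several carriers, at 0.17. In the tRNA synthetase list the median over 12 genes was 0.08, led by Aars at 0.14, Sars at 0.12 and Gars at 0.11. At an unadjusted p under 0.05, the 3 lists had 7, 7 and 6 genes higher with metformin (6.03% of all tested genes) and 0 lower (4.81%). Pycr1, Slc43a1 and Eprs had log2 differences of -0.03, -0.04 and -0.02.

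Of the 3 growth brakes under ATF4, which restrain mTORC1 or cap-dependent translation, Sesn2 had a log2 difference of 0.41, Ddit4 of 0.30 and Eif4ebp1 of 0.16, with adjusted p = 0.201, 0.243 and 0.301 (limma). Downstream of CHOP, the list of 7 tested genes had a median of 0.02, with Ppp1r15a at 0.35, Bbc3 (the death factor PUMA) at 0.19 and Bcl2l11 (the death factor BIM) at 0.05. Ero1l, an oxidase of the endoplasmic reticulum known as a CHOP target, had 63.53, 63.00 and 64.21 FPKM in the control libraries and 61.91, 67.28 and 64.32 with metformin, with overlapping groups. Tnfrsf10b, the death receptor induced by CHOP, was under 0.2 FPKM in every library.

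Lists of other stress programs gave the values beside these. The 15 chaperones and factors of the endoplasmic reticulum that answer to ATF6 and XBP1 had a median log2 difference of 0.0014, with 1 higher and 2 lower at an unadjusted p under 0.05. Herpud1, which takes part in degradation of endoplasmic reticulum proteins and also responds to ATF4, was at 0.24, Hsp90b1 at -0.07 and Sdf2l1 at 0.07. The 6 mitochondrial chaperones and proteases had a median of 0.02, led by Dnaja3 at 0.08, Hspd1 at -0.04 and Hspa9 at 0.02. The 7 tested p53 targets, a program that can also induce Atf3 and Gdf15, had a median of 0.01, led by Trp53inp1 at -0.22, Ccng1 at -0.12 and Mdm2 at -0.06. The 6 tested immediate early genes, a class to which Atf3 also belongs, had a median of 0.10, with Egr1 at 0.56, Ier2 at 0.21 and Jun at 0.10. Egr1 averaged 0.937 FPKM in the control group and 1.87 with metformin, so it was included only through the group where it was higher. None of the genes of these 4 lists passed the adjusted threshold of limma. At an unadjusted p under 0.05, 1 mitochondrial gene and 2 immediate early genes were higher, and 2 p53 targets were lower, where 6.03% of all tested genes were higher and 4.81% lower, and counts this small in lists of this size are not read further.

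**Figure D4:**
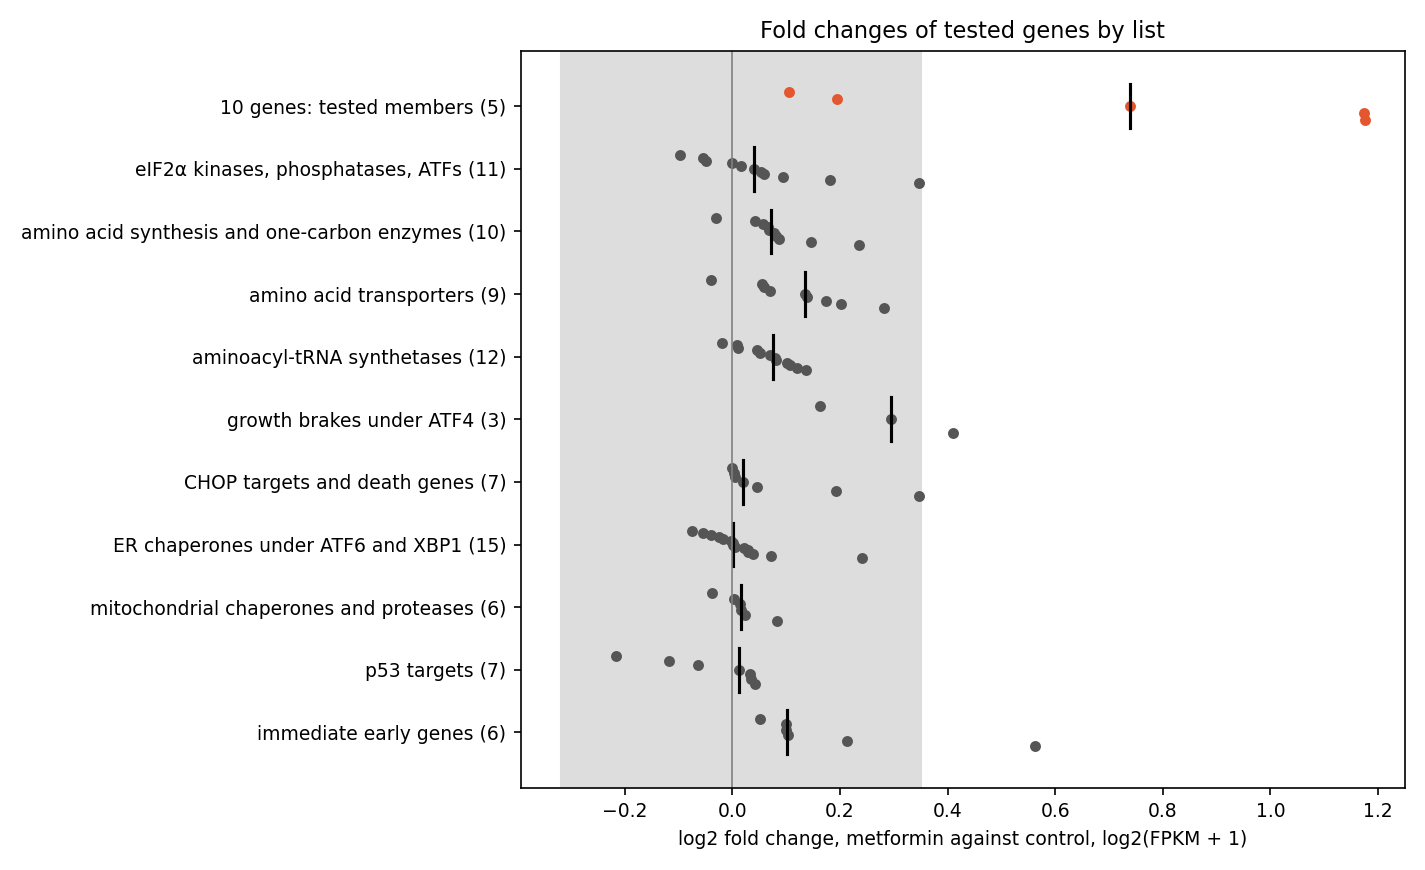
Log2 difference between metformin and control (horizontal axis, scale of log2(FPKM + 1)) of the 5 tested genes among the 10 (orange) and of the tested genes in each list (grey), with the number tested in brackets, the list median as a black line and the 1st to 99th percentile of all tested genes, -0.32 to 0.35, shaded. Ppp1r15a is in the first and the sixth list. Outside the members, Sesn2 at 0.41 and Egr1 at 0.56 lie beyond the shaded range, and Egr1 was under 1 FPKM in the control group.

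The genes whose profile over the 6 libraries was nearest to the mean profile of Trib3, Chac1 and Ddit3 were ranked by the Euclidean distance between centred log2(FPKM + 1) values. Since these 3 genes were picked for being higher with metformin, the nearest genes are higher by construction, and their ranking is a description. The nearest were an unnamed gene (ENSMUSG00000113946), Snora34, Mir301, Egr1 and mt-Tc, at distances of 0.384, 0.567, 0.590, 0.606 and 0.695, where the median of all tested genes was 1.27 and Stc2 and Cebpb were at 1.06 and 1.14. Egr1, a transcription factor induced by growth signals, had 0.87, 0.97 and 0.97 FPKM in the control libraries and 2.07, 1.93 and 1.60 with metformin. The unnamed gene, Mir301 and Egr1 averaged under 1 FPKM in the control group and were included only through their metformin libraries. Snora34, Mir301 and mt-Tc are 138, 86 and 66 bp long, and their FPKM stands for 1 or 2 fragments in each control library and 2 to 8 in each metformin library. Fragments were not estimated for the unnamed gene. It had 0.49, 0.48 and 0.47 FPKM in the control libraries and 1.42, 2.37 and 1.44 with metformin, so its support may be as thin. None of the 5 had an adjusted p under 0.05 (limma, smallest 0.201).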

How the data were processed

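RNA-seq of 3 control and 3 metformin libraries was analysed from the table the authors deposited, with FPKM values rounded to 2 decimals for 55401 Ensembl genes. The submitters' processing notes name HISAT2, DESeq2 and mm9 without roles, whereas gene positions in the table are those of GRCm38. The counter is not given in the sources used here. The labels name a stranded kit and the paper another one. The treatment text of the control samples also names metformin, so groups were taken from the treatment characteristic. All 6 per-sample columns were used.

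Depth was estimated from the step that 1 fragment makes in single-exon genes under 400 bp, where 100% of values fell within 0.1 of a whole number. Symbols came from Ensembl identifiers. The test was limma 3.58.1 (R 4.3.3, lmFit and eBayes with trend, two-sided) on log2(FPKM + 1), over the 10661 genes averaging 1 FPKM or more, with Benjamini-Hochberg adjustment at 0.05. A count test cannot take FPKM. The fit was tested on simulated data with known changes. Alternatives are given in the closing section.

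The members and lists were chosen with earlier results of these data known. Named genes were the 10 members, the relatives above 1 FPKM (except 1 that is not reported here), up to 3 genes per list with the largest absolute log2 difference, and the 5 nearest profiles. Atf4, Ero1l, Tnfrsf10b, Pycr1, Slc43a1, Eprs, Trib1, Trib2 and the cell type markers were named after their values were seen. Python 3.11.15 and matplotlib 3.10.9 were used.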

Additional observations from a re-analysis of the deposited data

How the results depend on the processing

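With a pseudocount of 0.1 the log2 difference was 0.81 for Ddit3, 1.28 for Trib3 and 1.43 for Chac1, and with a common sum for every library (TPM) it was 1.25 for Trib3 and 1.35 for Chac1. Leaving out each library in turn gave 0.70 to 0.78 for Ddit3, 1.15 to 1.21 for Trib3, 1.13 to 1.23 for Chac1, 0.08 to 0.12 for Cebpb and 0.12 to 0.25 for Stc2. Cebpb and Stc2 had positive differences in every alternative that tested them, with adjusted p from 0.251 to 0.534 and from 0.396 to 0.634 (limma). Their groups did not overlap, so leaving out a library, another pseudocount or the block could not change this sign. With the replicate block the count of genes higher with metformin was 2 (Trib3 and Chac1, without Ddit3). The log2 difference of Ddit3 was 0.74 with the block and without it. These values are a description, since the genes were picked for their rise. With the block, the 6 pathway lists had 21 genes higher at an unadjusted p under 0.05 (limma). Deviations from the group mean correlated at -0.03 to 0.05 over 3 pairs of same-numbered libraries. Over 6 pairs of differently numbered libraries they correlated at -0.05 to 0.03. Such correlations over all genes cannot tell whether same-numbered libraries shared a culture or a day. Genes lower with metformin numbered 3 (and those higher 4) when all 22809 genes above 0 were tested, and 0 to 1 with a library left out, the 1 being SCARNA14 without control repeat 3 and SNORD18 without metformin repeat 3. With a mean of at least 10 FPKM, Chac1 and Stc2 were not tested. The larger log2 differences with the pseudocount of 0.1 and with TPM follow from a pseudocount that is smaller beside the values, and the cause of the other shifts was not tested. Depth limits Gdf15, Vldlr and Fgf21, which had at most about 4.05 fragments in a library.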
